A study of Gallus gallus with 16 samples.

Results

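Glycolysis, the fate of pyruvate and the transport of glucose were described in COVCAR cells, primary chicken ovarian cancer cells, by the genes on a list of 41 symbols for sugar and lactate transporters, glycolytic and gluconeogenic enzymes, and the enzymes that admit pyruvate to the mitochondrion. Of these, 33 were found by symbol in the table of 23910 genes, each in 1 row, and 31 had enough counts to be tested. SLC2A3, PFKFB4, PGK1, PKM, MPC1, PDHA1, PC and PCK2 were not analysed here. RNA was sequenced from 16 cultures, in which cells of 4 lines, each from the ascites of 1 hen with ovarian endometrioid adenocarcinoma, were left untreated (control group, 0 mM) or exposed for 24 h to metformin at 0.5, at 1 or at 2 mM. The lines were C5, C7 and C9 at passage 3 and C11 at passage 2, and each line gave 1 library a dose. All 16 cultures, controls included, were kept in serum-free medium with bovine insulin and recombinant human epidermal growth factor in ultra-low attachment plates. The 4 libraries of a dose are thus 4 hens, and each line is a culture from 1 animal. Whether a library pooled wells was not clear from the sources used here, so no spread between wells of 1 line and dose could be measured.

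Glucose enters cells through the SLC2A family of facilitative carriers and is trapped by hexokinase. Phosphofructokinase then commits it to glycolysis, under the stimulation of a second fructose bisphosphate that the bifunctional PFKFB enzymes make and remove. The triose enzymes below this step yield pyruvate, which lactate dehydrogenase reduces to lactate for export by the SLC16A monocarboxylate carriers, or which the mitochondrial pyruvate carrier and the pyruvate dehydrogenase complex pass on to the citric acid cycle. Pyruvate dehydrogenase kinases (PDK) switch that complex off. Metformin is an antidiabetic drug known to inhibit respiratory complex I, and tumor cells are known for a high use of glucose.

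Levels are given as CPM, the counts of a gene relative to the library total after TMM scaling, and levels of different genes are compared as CPM per kilobase of exon. Library totals lay between 34724071 and 42531887 counts, and the members held 1.22 to 3.00% of them. The libraries also differed in a bias with gene length. Each gene's mean log2 CPM over the 16 libraries was subtracted, and the remainder was regressed on log2 exonic length. The slope is thus relative to the average library, so slopes of both signs had to occur. It was positive in 7 libraries and negative in 9, between -0.291 (C7 at 0 mM) and 0.262 (C9 at 0 mM). All 4 C9 libraries were positive, whereas in C5, C7 and C11 a single library was, namely 2 mM in C5 (0.236), 0.5 mM in C7 (0.181) and 0.5 mM in C11 (0.117). Of the 7 epithelial markers measured, EPCAM had at most 0.645 CPM and CDH1 at most 7.15 CPM, whereas the keratin KRT7 had 205 to 860 CPM. The collagen COL1A1 had 1884 to 29613 CPM. The summed level of 9 fibroblast markers, most of it from collagen genes, was 9388 to 31490 CPM at 2 mM and 19946 to 67116 CPM at 0 mM. Erythroid markers summed to at most 3.63 CPM in any library. Fits with the length slope as a covariate are given where they changed a call. The part of cell composition in the results that follow was not tested, and in bulk RNA fewer cells of a type and less RNA per cell cannot be told apart.

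The most abundant members per kilobase were the triose and lactate enzymes. GAPDH, glyceraldehyde phosphate dehydrogenase, averaged 4218 CPM per kilobase over the 16 libraries, followed by the enolase ENO1 (1564), lactate dehydrogenase LDHA (1307), aldolase ALDOC (792) and the phosphoglycerate mutase PGAM1 (581). At the other end stood SLC2A11 (1.43), FBP1 (0.524), PDK4 (0.337) and SLC16A7 (0.245). PCK1, the cytosolic enzyme that opens gluconeogenesis, had counts in 3 of 16 libraries and never more than 2. SLC2A9, a urate carrier in mammals, had counts in 6 libraries and at most 7. Neither passed the count filter.

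Within several families a single isoform carried most of the message per kilobase. ENO1 made up 98.8% of ENO1 and the neuronal form ENO2 (98.2 to 99.2% over the libraries). LDHA made up 78.8% of LDHA and LDHB (63.3 to 89.3%). Of the phosphofructokinases, the platelet form PFKP held 74.5%, the liver form PFKL 22.0% and the muscle form PFKM 3.52%. HK2, the inducible hexokinase, held 27.4% of the pair HK1 and HK2 (16.3 to 37.0%). Of the 3 monocarboxylate carriers on the list SLC16A1 held 58.3% and SLC16A3 41.5%. The kinases, with PDK2 from outside the member list included, were more evenly shared on average over the 16 libraries. PDK3 held 37.4% of their message, PDK2 36.5%, PDK1 24.9% and PDK4 1.21%. The order of the means differed by dose. PDK2 averaged 44.8, 31.5, 42.5 and 27.3% at 0, 0.5, 1 and 2 mM, and PDK3 31.7, 37.0, 34.4 and 46.5%. The lines did not all share it: PDK3 was above PDK2 in untreated C9 (41.3 and 27.3%). It was below PDK2 in C11 at 2 mM (34.2 and 37.9%). Over single libraries PDK2 ranged from 13.3 to 56.4%.

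The first question was whether metformin altered these genes at any dose. A gene was called where the edgeR quasi-likelihood p-value was under 0.01 and the Benjamini-Hochberg adjusted p-value over all genes was under 0.05. At 2 mM 0 of the 31 members were called, beside 0% of the 13289 genes tested, and 4 members had an unadjusted p-value under 0.05, or 12.9%, beside 10.6% of all genes. At 1 mM the numbers were 0 called (0% of all genes) and 2 under 0.05 (6.45%, beside 4.77% of all genes). At 0.5 mM they were 0 called (0% of all genes) and 1 under 0.05 (3.23%, beside 1.1%). DESeq2 called 0 members at 0.5 mM (0% of all genes) and at 1 mM (beside 0.243%), and 2 at 2 mM (PFKM and PFKFB2; 6.45%, beside 2.44%). In the slope of log2 expression on dose over all 16 libraries, 0 members were called, beside 0.432% of genes, and 6 were under 0.05 (19.4%, beside 14.8%). By the counts of unadjusted p-values in these edgeR fits, which had no cell line term, the members stood close to the transcriptome as a whole. With the cell line as a block, 7 of 31 members were under 0.05 at 1 mM, beside 1959 of 13330 genes. At 1 mM the closeness did not hold with block and length slope together, where 21 of 31 were under 0.05, beside 4182 of 13330 genes. At 2 mM that fit gave 8 of 31, beside 3886 of 13289 genes. In the fits with no cell line term, the members' median change at 2 mM was -0.13 on the log2 scale, beside 0.01 over all genes. There 11 of 31 were higher, beside 50.6% of all genes. At 1 mM the median was -0.27, beside -0.003, and 7 of 31 were higher, beside 49.7%. At 0.5 mM it was -0.19, beside 0.002, and 7 of 31 were higher, beside 50.2%. At each dose a smaller share of members than of all genes was thus higher. The 2, 1 and 0.5 mM groups were set against the same 4 control libraries, so the 3 comparisons are not independent.

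**Figure D1:**
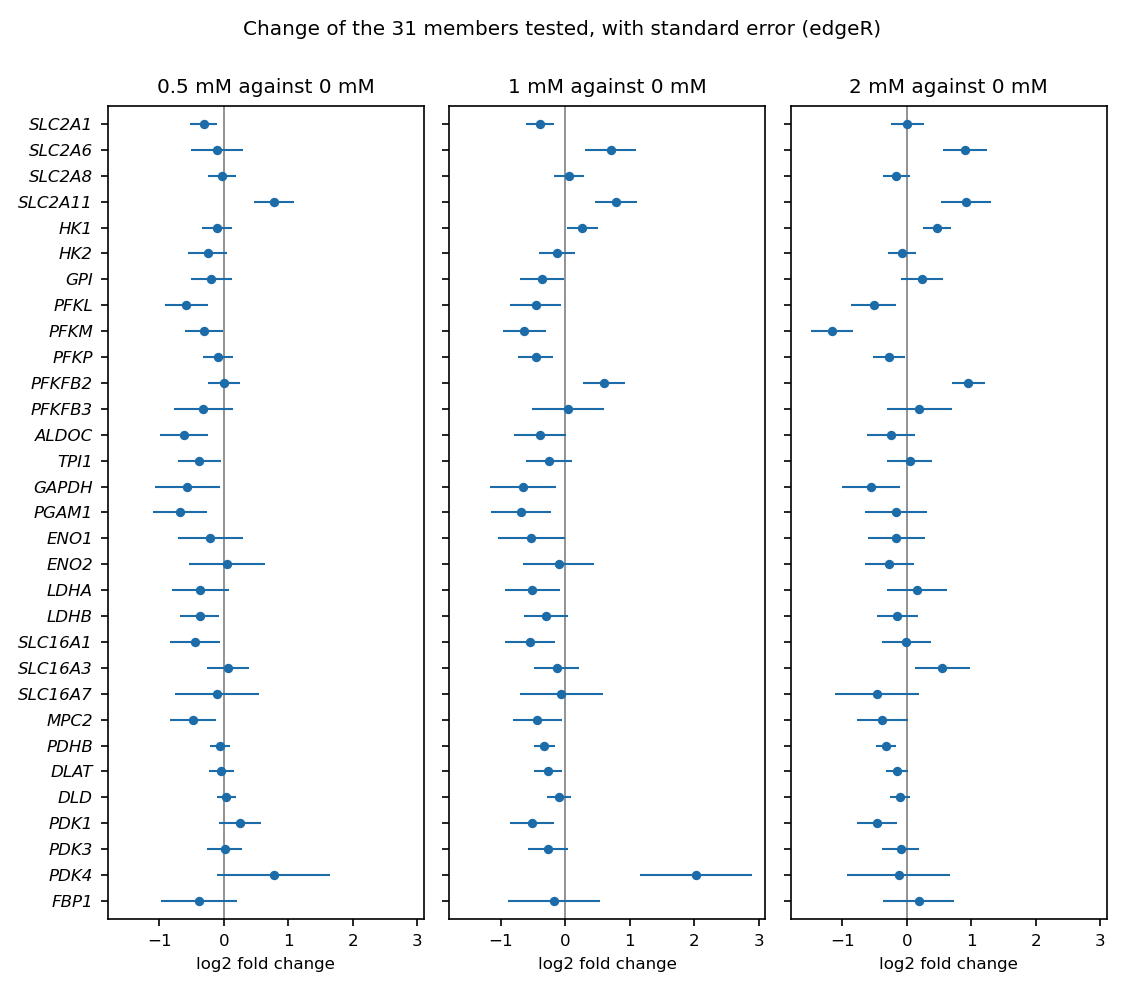
Log2 fold change (x axis) of the 31 tested members (rows, from sugar carriers at the top to FBP1 at the bottom) in the 0.5, 1 and 2 mM groups against the 0 mM group. Points are edgeR estimates and bars their standard errors (n = 4 libraries a group). At 2 mM PFKM lay lowest, at -1.17, and PFKFB2 highest, at 0.95.

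In the fits with no cell line term, the 6 members with an unadjusted p-value under 0.05 at 2 mM or in the slope were PFKM, PFKFB2, SLC2A6, HK1, SLC2A11 and PDHB. PFKM and PDHB were lower and the other 4 higher at 2 mM than in the control group, in all 4 lines. Values of the lines are given in the order C5, C7, C9 and C11 throughout.

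PFKM, which encodes muscle phosphofructokinase (ENSGALG00000033271, GRCg6a chromosome 33, 7260322 to 7265353, minus strand), had 4.31, 5.60, 2.84 and 5.57 CPM at 2 mM, against 12.3, 11.3, 6.92 and 11 CPM in the control group. The highest 2 mM library, C7, was below the lowest control library, C9, so the groups did not overlap. Over the doses 0, 0.5, 1 and 2 mM the mean was 10.4 ± 2.37, 8.41 ± 1.94, 6.63 ± 2.00 and 4.58 ± 1.31 CPM (SD, n = 4), and the mean went down at each step. The log2 fold change at 2 mM was -1.17 (SE 0.33, adjusted p = 0.312) and the slope -0.58 per mM (SE 0.14, adjusted p = 0.0627). Blocking on cell line, the slope passed the test at -0.58 per mM (adjusted p = 0.0143), and after adding each library's length slope as a covariate it passed at -0.57 (adjusted p = 0.00234). The call with both terms was also made after leaving out each of the 4 lines in turn, and that with the block alone was lost without C5, C9 or C11. The 2 mM comparison passed with block and length slope together (adjusted p = 0.0441) and with DESeq2 (adjusted p = 0.0332), but not with the block alone (adjusted p = 0.0676). With both terms the 2 mM call was lost when C7, C9 or C11 was left out.

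The other phosphofructokinases did not pass the test at 2 mM. PFKL had 53.6, 93.3, 48.2 and 66.2 CPM at 2 mM, against 106, 133, 45.3 and 91.7 CPM at 0 mM, and the groups overlapped (log2 fold change -0.51, adjusted p = 0.671, or 0.227 with the line as a block). PFKP had 306, 264, 229 and 171 CPM at 2 mM, against 369, 326, 259 and 236 CPM at 0 mM, lower in every line but with overlapping groups (log2 fold change -0.28, adjusted p = 0.769). Within the lines the log2 change of PFKP was -0.27, -0.31, -0.17 and -0.46, and with the line as a block it was -0.29 (SE 0.13, adjusted p = 0.236). The share of PFKM in phosphofructokinase message per kilobase was 1.91, 2.46, 1.63 and 3.64% at 2 mM, against 4.01, 3.81, 3.55 and 5.11% in the control group. It was lower in all 4 lines, and only the C11 library at 2 mM lay within the control range.

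PFKFB2, a bifunctional enzyme that makes and breaks down the fructose bisphosphate activating phosphofructokinase (ENSGALG00000001117, GRCg6a chromosome 26, 2618673 to 2632975, plus strand), went the other way. It had 16.6, 14.1, 21.1 and 23.7 CPM at 2 mM, against 8.20, 10.1, 10.3 and 10.8 CPM in the control group, with no overlap. The mean was 9.86 ± 1.15, 9.88 ± 1.85, 14.7 ± 4.95 and 18.9 ± 4.34 CPM at 0, 0.5, 1 and 2 mM (SD, n = 4), level at the lowest dose and higher at 1 and 2 mM. The C5 line had 8.18 CPM at 1 mM, close to its own control. The log2 fold change at 2 mM was 0.95 (SE 0.25, adjusted p = 0.305) and the slope 0.53 per mM (SE 0.12, adjusted p = 0.0597). The slope passed with the line as a block (adjusted p = 0.0196) and with block and length slope together (adjusted p = 0.00677). Leaving out C5 or C9 ended the call with both terms, and leaving out C5, C9 or C11 the call with the block alone. At 2 mM it passed with DESeq2 (adjusted p = 0.0253) and, just under the threshold, with block and length slope together (adjusted p = 0.0498), but not with the block alone (adjusted p = 0.0791). As for PFKM, the call with both terms was lost without C7, C9 or C11.

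PFKFB3, the related form with the strongest kinase activity, was more abundant and far more variable. Its level was 56.7, 23.9, 122 and 44.1 CPM at 2 mM and 31.3, 39.6, 84.1 and 65.5 CPM at 0 mM, higher at 2 mM in C5 and C9 and lower in C7 and C11. Its log2 fold change was 0.19 (SE 0.51, adjusted p = 0.943).

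**Figure D2:**
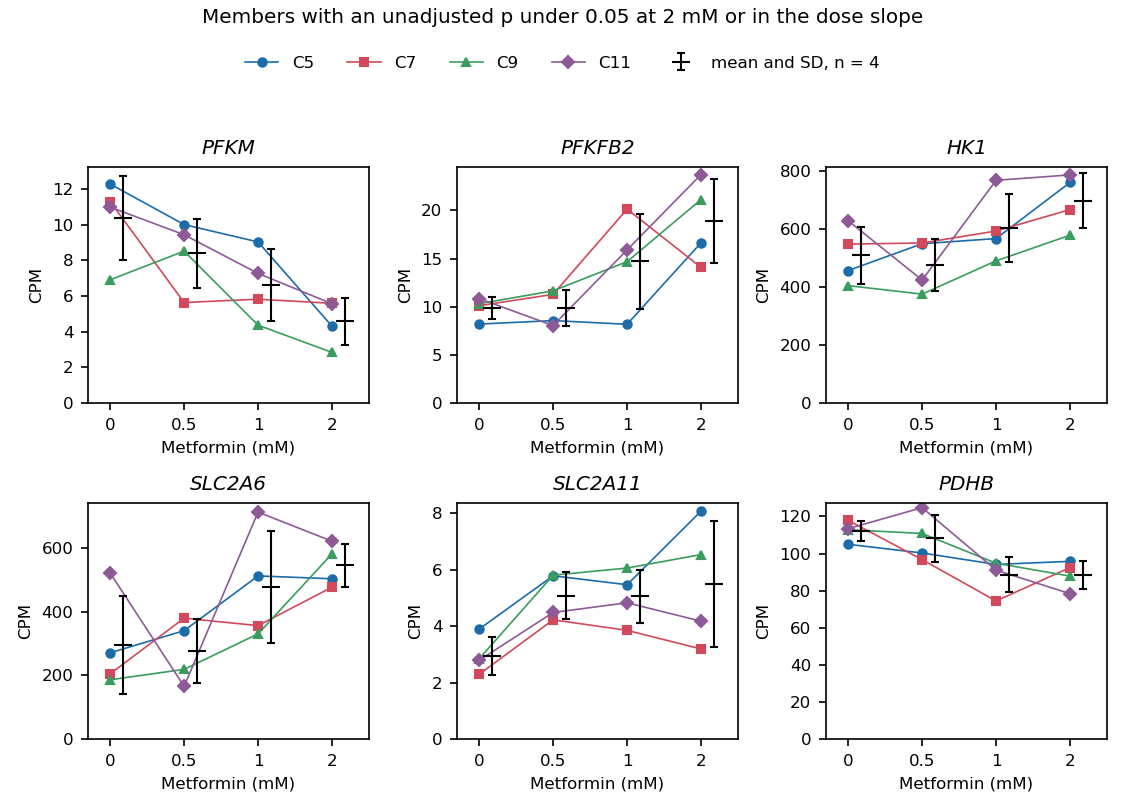
CPM (y axis) by metformin dose in mM (x axis, doses evenly spaced) of PFKM, PFKFB2, HK1, SLC2A6, SLC2A11 and PDHB. Colored points joined by lines are the libraries of C5, C7, C9 and C11, and black bars the mean and SD of 4 libraries. PFKM averaged 10.4, 8.41, 6.63 and 4.58 CPM at 0, 0.5, 1 and 2 mM, and PFKFB2 9.86, 9.88, 14.7 and 18.9 CPM.

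Of the listed glucose carriers found by symbol, which leaves out SLC2A3, SLC2A6 was the most abundant per kilobase and SLC2A11 the least of those tested. SLC2A6 encodes a carrier of lysosomal membranes in mammals (ENSGALG00000002982, GRCg6a chromosome 17, 7235916 to 7240174, minus strand). It had 504, 477, 582 and 622 CPM at 2 mM, against 271, 205, 186 and 522 CPM in the control group. Each line was above its own control, but the C11 control was higher than 2 of the 2 mM libraries. The C11 library at 0.5 mM, with 166 CPM, was the lowest of all 16 and that at 1 mM, with 713 CPM, the highest. Its log2 fold change was 0.90 at 2 mM (SE 0.34, adjusted p = 0.401) and the slope 0.52 per mM (SE 0.17, adjusted p = 0.152). With block and length slope together the slope passed (adjusted p = 0.0282), as did 1 mM (log2 fold change 0.76, adjusted p = 0.0489). Without C5 or C9 the slope no longer passed, and the call at 1 mM was lost without C5, C7 or C11.

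SLC2A11, a carrier of glucose and fructose in humans, had 8.07, 3.19, 6.53 and 4.17 CPM at 2 mM, against 3.89, 2.29, 2.84 and 2.79 CPM in the control group. The groups overlapped through C7, although every line was above its own control at 0.5, 1 and 2 mM. Its mean was 2.95 ± 0.673, 5.07 ± 0.838, 5.05 ± 0.944 and 5.49 ± 2.22 CPM along the 4 doses, so most of the difference was already there at 0.5 mM. In log2 terms the change was 0.78 at 0.5 mM (adjusted p = 0.955), 0.79 at 1 mM (adjusted p = 0.9999) and 0.92 at 2 mM (SE 0.38, adjusted p = 0.448). The slope was 0.37 per mM (SE 0.16, adjusted p = 0.295). It was the member under an unadjusted p-value of 0.05 at 0.5 mM.

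SLC2A1, the basal glucose carrier of most cells, did not follow. It had 233, 269, 257 and 158 CPM at 2 mM, against 217, 317, 188 and 202 CPM at 0 mM, higher in C5 and C9 and lower in C7 and C11. The log2 fold change was 0.01 (SE 0.25, adjusted p = 0.996) and the slope 0.04 per mM (SE 0.10, adjusted p = 0.934), and the sign at 2 mM turned with DESeq2 or RLE scaling. At 0.5 and 1 mM it was lower than its own control in every line, with log2 fold changes of -0.31 (adjusted p = 0.955) and -0.39 (adjusted p = 0.9999). Its share of the message of the SLC2A members per kilobase averaged 36.5, 32.3, 21.2 and 22.8% along the doses. SLC2A8, an intracellular carrier, was even, from 16.9 to 27.2 CPM over all libraries.

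Of the hexokinases, HK1 was higher at 2 mM in every line, whereas HK2 had no steady direction. HK1, the constitutive form bound to mitochondria (ENSGALG00000004222, GRCg6a chromosome 6, 11585402 to 11612168, plus strand), had 760.3, 667, 579 and 786 CPM at 2 mM, against 457, 548, 405 and 628 CPM in the control group. Each line was above its own control at 1 and at 2 mM, but the C11 control lay among the 2 mM libraries. At 2 mM its log2 fold change was 0.47 (SE 0.22, adjusted p = 0.491) and the slope 0.28 per mM (SE 0.09, adjusted p = 0.167). The slope passed with the line as a block (adjusted p = 0.0489) and with the length slope added (adjusted p = 0.0165), and both calls were lost without C5 or without C9. The call with the block alone was also lost without C11.

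HK2 had 271, 257, 284 and 174 CPM at 2 mM, against 295, 272, 208 and 275 CPM at 0 mM, higher than its control in C9 alone. Its log2 fold change was -0.07 (SE 0.22, adjusted p = 0.948), and its slope was -0.00050 per mM (SE 0.13, adjusted p = 0.9998). GPI, which interconverts glucose and fructose phosphates, had 882, 894, 704 and 468 CPM at 2 mM and 788, 864, 439 and 445 CPM at 0 mM, above its own control in all 4 lines with overlapping groups (log2 fold change 0.23, adjusted p = 0.873).

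The triose steps (ALDOC, TPI1, GAPDH, PGAM1, ENO1 and ENO2) varied much between libraries. PGAM1 had the lowest log2 fold change of all 31 members at 0.5 mM (-0.68) and at 1 mM (-0.68). It averaged 1255 ± 788, 790 ± 135, 777 ± 264 and 1111 ± 485 CPM along the doses (SD, n = 4). GAPDH averaged 9414, 6387, 5940 and 6351 CPM, whereas ENO2 moved less, with 49.2, 51.0, 45.6 and 40.3 CPM. In the fits with no cell line term, none of the 6 had an unadjusted p-value under 0.05 at any dose. At 2 mM 5 of 6 were lower, with a median log2 change of -0.21. GAPDH, often taken as a reference gene in such cells (ENSGALG00000014442, GRCg6a chromosome 1, 77619214 to 77623350, plus strand), had 6193, 9464, 5158 and 4589 CPM at 2 mM, against 11688, 15277, 4786 and 5906 CPM in the control group. It was lower at 2 mM in C5, C7 and C11 and slightly higher in C9 (log2 fold change -0.56, SE 0.45, adjusted p = 0.736). The slope was -0.23 per mM (SE 0.21, adjusted p = 0.694). Over all libraries it ranged 4.58-fold, between 3335 and 15277 CPM.

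The lower levels at 0.5 and 1 mM were most marked in the C7 line. Of the 31 members, 10 had their highest level in the untreated C7 library, among them GAPDH, PGAM1, ALDOC, TPI1, LDHA and SLC16A1. The same share over all genes is not given, so this count is no result about the members. That library had the lowest TMM scaling factor (0.832) and the fewest genes with a count (14888). Within C7 the median log2 change of the members was -0.64 at 0.5 mM, -0.91 at 1 mM and -0.31 at 2 mM. In C5 the same medians were -0.02, -0.04 and -0.08, in C9 -0.03, -0.14 and 0.45, and in C11 -0.10, -0.22 and -0.19. Thus at 2 mM 21 of 31 members were higher than the control in C9, against 8 in C7, 9 in C11 and 13 in C5. Of all genes, 45.3% were higher in C9, 50.2% in C7, 50% in C11 and 52.1% in C5. The untreated C7 library had the most negative length slope (-0.291), whereas C7 at 0.5, 1 and 2 mM had 0.181, -0.15 and -0.21. Its fibroblast markers summed to 35452 CPM at 0 mM and to 19222, 8075 and 31490 CPM at the 3 doses. With block and length slope in the model, the members' median change was -0.02 at 0.5 mM, -0.31 at 1 mM and 0.01 at 2 mM. The part of cell composition in these levels was not tested.

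**Figure D3:**
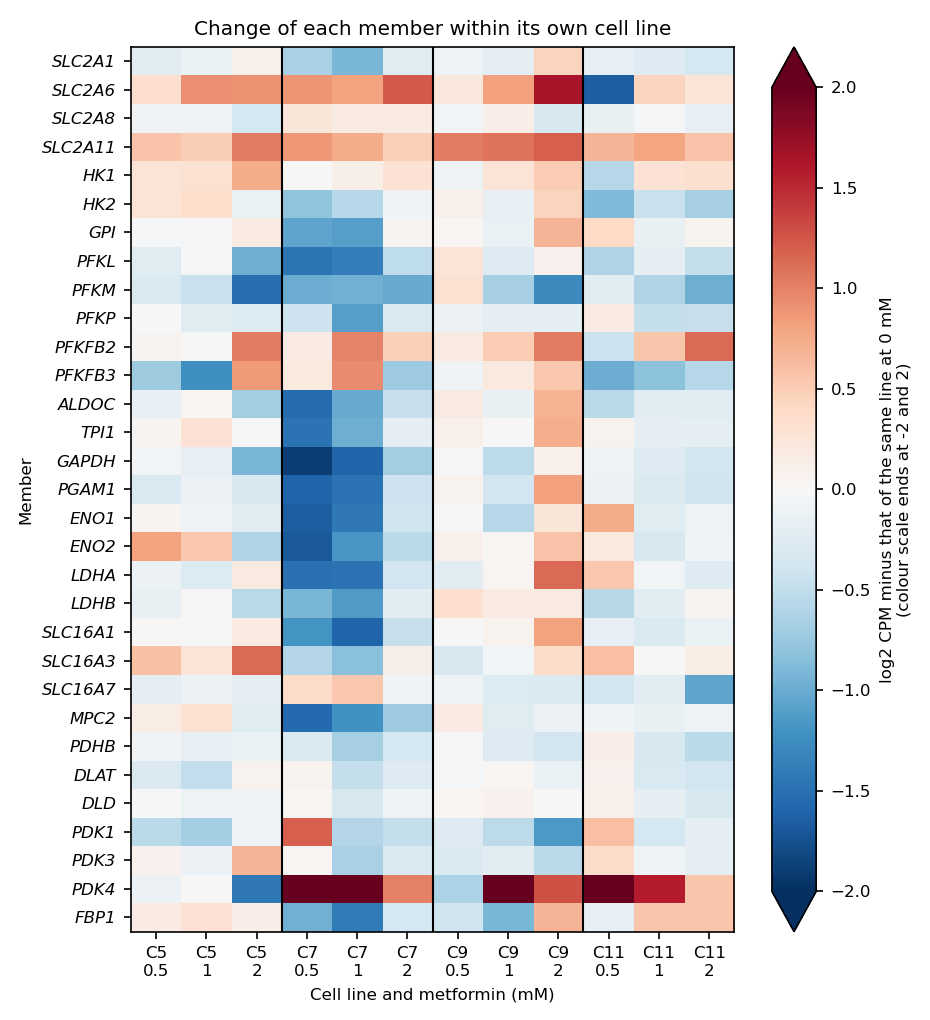
Difference in log2 CPM (color) between each treated library and the 0 mM library of the same cell line, for the 31 tested members (rows), by cell line and metformin dose in mM (columns). Most triose and lactate enzymes were lower in C7 at 0.5 and 1 mM (members' median -0.64 and -0.91), PFKM was lower in all 4 lines at 2 mM and PFKFB2 higher. Values beyond -2 and 2 are drawn in the end colors.

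Lactate dehydrogenase and the monocarboxylate carriers gave no call by dose, and none of the 5 had an unadjusted p-value under 0.05 in the fits with no cell line term. LDHA, which favors the making of lactate, had 3971, 3117, 3387 and 1323 CPM at 2 mM, against 3507, 4083, 1536 and 1588 CPM in the control group. It was higher in C5 and C9 and lower in C7 and C11 (log2 fold change 0.16, SE 0.46, adjusted p = 0.947), and its slope was 0.12 per mM (SE 0.19, adjusted p = 0.873). LDHB, which favors the return of lactate to pyruvate, averaged 503 ± 161, 389 ± 80.8, 407 ± 137 and 451 ± 128 CPM along the doses. SLC16A3, a carrier that exports lactate from glycolytic cells, had 316, 184, 185 and 79.3 CPM at 2 mM and 145, 169.6, 143 and 71.2 CPM at 0 mM. It was above its own control in all 4 lines, most in C5, and the groups overlapped (log2 fold change 0.55, SE 0.42, adjusted p = 0.713). SLC16A1, which carries lactate in either direction, averaged 291 ± 154, 215 ± 60.7, 198 ± 61.2 and 288 ± 71.7 CPM.

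The 4 genes for mitochondrial pyruvate entry (MPC2, PDHB, DLAT and DLD) were all lower on average at 2 mM, by a median of -0.24 on the log2 scale. PDHB, the beta subunit of the first enzyme of the pyruvate dehydrogenase complex (ENSGALG00000029576, GRCg6a chromosome 12, 12224507 to 12228998, minus strand), had 95.8, 92.4, 87.8 and 78.4 CPM at 2 mM, against 105, 118, 113 and 113 CPM in the control group. The groups did not overlap, and the step lay between 0.5 mM (108 ± 12.6 CPM) and 1 mM (88.6 ± 9.58 CPM, SD, n = 4). The difference was small next to those of PFKM and PFKFB2: the log2 fold change was -0.32 (SE 0.15, adjusted p = 0.506) and the slope -0.17 per mM (SE 0.06, adjusted p = 0.210). DLAT and DLD, the other catalytic subunits, varied little, with 30.1 to 53.5 CPM for DLAT and 63.7 to 98.6 CPM for DLD over the 16 libraries. MPC2, a subunit of the mitochondrial pyruvate carrier, was lower at 2 mM in all 4 lines, with 49.7, 92.4, 45.4 and 64.6 CPM against 58.6, 152, 49.2 and 69.4 CPM at 0 mM, and its groups overlapped (adjusted p = 0.817).

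Over all members tested, the CPM of the 2 mM and control groups did not overlap for 3 (PFKM, PFKFB2 and PDHB), or 9.68%, beside 7.19% of all genes. The direction at 2 mM was shared by all 4 lines for 13 members, or 41.9%, beside 35.9% of all genes. These 13 were SLC2A6, SLC2A11, HK1, GPI, PFKFB2 and SLC16A3, which were higher, and PFKM, PFKP, SLC16A7, MPC2, PDHB, DLD and PDK1, which were lower. With DESeq2 2 members were called at 2 mM (PFKM and PFKFB2), or 6.45%, beside 2.44% of genes, and the same 2 in the slope, beside 4.79%. With block and length slope together, 2 were called at 2 mM (PFKM and PFKFB2), beside 5.43% of genes, and 2 at 1 mM (PDK4 and SLC2A6), beside 1.76%. In the slope, 3 were called with the block (PFKM, PFKFB2 and HK1; 9.68%, beside 4.96%) and 5 with the length slope added (those 3, SLC2A6 and PDK1; 16.1%, beside 16.1%). The length slope without the block gave the same 5 (16.1%, beside 6.39%), with adjusted p = 0.00605 for PFKM, 0.0192 for PFKFB2, 0.0363 for HK1, 0.0482 for PDK1 and 0.0497 for SLC2A6.

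The kinases that switch pyruvate dehydrogenase off varied unevenly along the doses. PDK4, the form known to be induced in fasting (ENSGALG00000009700, GRCg6a chromosome 2, 23905072 to 23914501, minus strand), had 1.85, 5.56, 2.16 and 1.13 CPM at 1 mM, against 1.83, 0.121, 0.364 and 0.361 CPM in the control group. C7, C9 and C11 were each above their own control at 1 mM and C5 was level with its own, which was the highest of the controls. The counts behind these values were low, 42 to 250 reads at 1 mM and 4 to 66 reads at 0 mM. At 1 mM its log2 fold change was 2.02 (SE 0.87, adjusted p = 0.9999). With block and length slope together it was 2.60 (SE 0.32, adjusted p = 0.0452), a call that was lost without C5 (adjusted p = 0.0693), without C7 (adjusted p = 0.466) and without C11 (adjusted p = 0.104). At 2 mM PDK4 had 0.665, 0.271, 0.922 and 0.543 CPM, within the control range (log2 fold change -0.13, SE 0.80, adjusted p = 0.978; slope 0.01 per mM, SE 0.60, adjusted p = 0.997). That sign rested on the C5 control, without which the change at 2 mM was 1.07, and with the line as a block it was 0.35 (adjusted p = 0.750).

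PDK1, the form known as a target of the hypoxia response, had 17.1, 8.76, 12.0 and 13.4 CPM at 2 mM, against 17.8, 12.2, 26.4 and 15.2 CPM at 0 mM. It was lower in all 4 lines, with overlapping groups (log2 fold change -0.46, SE 0.31, adjusted p = 0.671), and at 1 mM it was lower than the control in each line as well. The fall was not steady: at 0.5 mM PDK1 averaged 21.3 ± 6.54 CPM, against 17.9 ± 6.12 CPM at 0 mM (SD, n = 4). At that dose it was above its own control in C7 and C11 and below it in C5 and C9. Its slope passed with block and length slope together (-0.32 per mM, adjusted p = 0.0183). It did not pass with the block alone (adjusted p = 0.319), nor with both terms when C5 or C9 was left out. PDK3 averaged 29.8 ± 9.51, 30.1 ± 5.73, 24.4 ± 7.17 and 27.5 ± 5.95 CPM along the doses. FBP1, which turns fructose bisphosphate back in gluconeogenesis, averaged 0.921 ± 0.490, 0.707 ± 0.314, 0.811 ± 0.596 and 1.04 ± 0.433 CPM, or 7 to 58 reads a library.

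**Figure D4:**
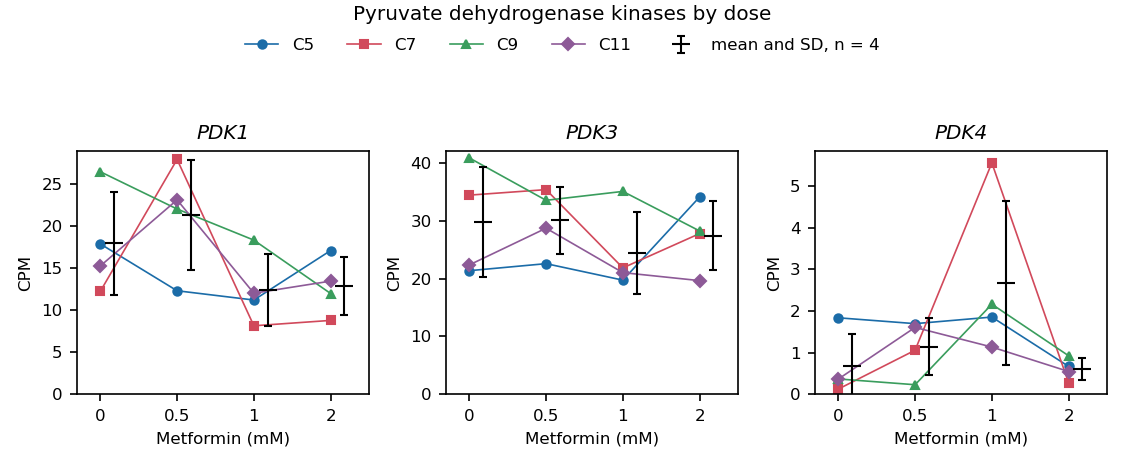
CPM (y axis) of the pyruvate dehydrogenase kinases PDK1, PDK3 and PDK4 by metformin dose in mM (x axis, doses evenly spaced). Colored points joined by lines are the 4 cell lines, and black bars the mean and SD of 4 libraries, with axes that start at 0. PDK4 averaged 0.670, 1.14, 2.68 and 0.600 CPM at 0, 0.5, 1 and 2 mM, with the single highest value, 5.56 CPM, in C7 at 1 mM.

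A further comparison asked which members set the 4 cultures apart, whatever the dose. With dose kept in the model, 6 of 31 members were called between lines (19.4%, beside 14.9% of all genes). Since each line is 1 hen, the test compares these 4 cultures over their 4 libraries and not a population of birds. C11 was at passage 2 and C5, C7 and C9 at passage 3, so for C11 hen and passage cannot be told apart. The 4 doses stand in for replicates here, and their spread is given as SD. C5 was the highest line in 4 of the 6.

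SLC16A7, a high-affinity pyruvate and lactate carrier, differed most in ratio among those called, 4.55-fold between C9 and C5. It averaged 0.254 ± 0.0176 (C5), 0.571 ± 0.124 (C7), 1.15 ± 0.120 (C9) and 0.898 ± 0.262 (C11) CPM (SD, n = 4 doses; adjusted p = 0.00773). Its level was low throughout, 8 to 53 reads a library, and all C5 libraries lay below all others. SLC16A3 averaged 213 ± 74.8 (C5), 140.3 ± 43.0 (C7), 145 ± 29.4 (C9) and 82.4 ± 17.6 (C11) CPM, 2.58-fold higher in C5 than in C11 (adjusted p = 0.0186). These carriers thus ranked the C5 culture at opposite ends.

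The enolases were both highest in C5. ENO1 averaged 6401 ± 499 (C5), 3938 ± 2093 (C7), 2546 ± 561 (C9) and 2890.2 ± 989 (C11) CPM, a 2.51-fold ratio of C5 to C9 (adjusted p = 0.0424), and in C7 the untreated library (6428 CPM) lay within the range of C5. ENO2 averaged 83.4 ± 32.8 (C5), 44.0 ± 21.8 (C7), 28.7 ± 5.69 (C9) and 29.9 ± 4.27 (C11) CPM, 2.91-fold higher in C5 than in C9 (adjusted p = 0.0313). The libraries of C9 and C11 overlapped in both genes. FBP1 was highest in C11 and lowest in C9, with 0.866 ± 0.0742 (C5), 1.000 ± 0.425 (C7), 0.330 ± 0.170 (C9) and 1.28 ± 0.331 (C11) CPM (3.89-fold, adjusted p = 0.0317). PFKP averaged 339.7 ± 36.0 (C5), 247 ± 72.4 (C7), 238 ± 14.4 (C9) and 210.3 ± 47.6 (C11) CPM (1.62-fold between C5 and C11, adjusted p = 0.0497).

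**Figure D5:**
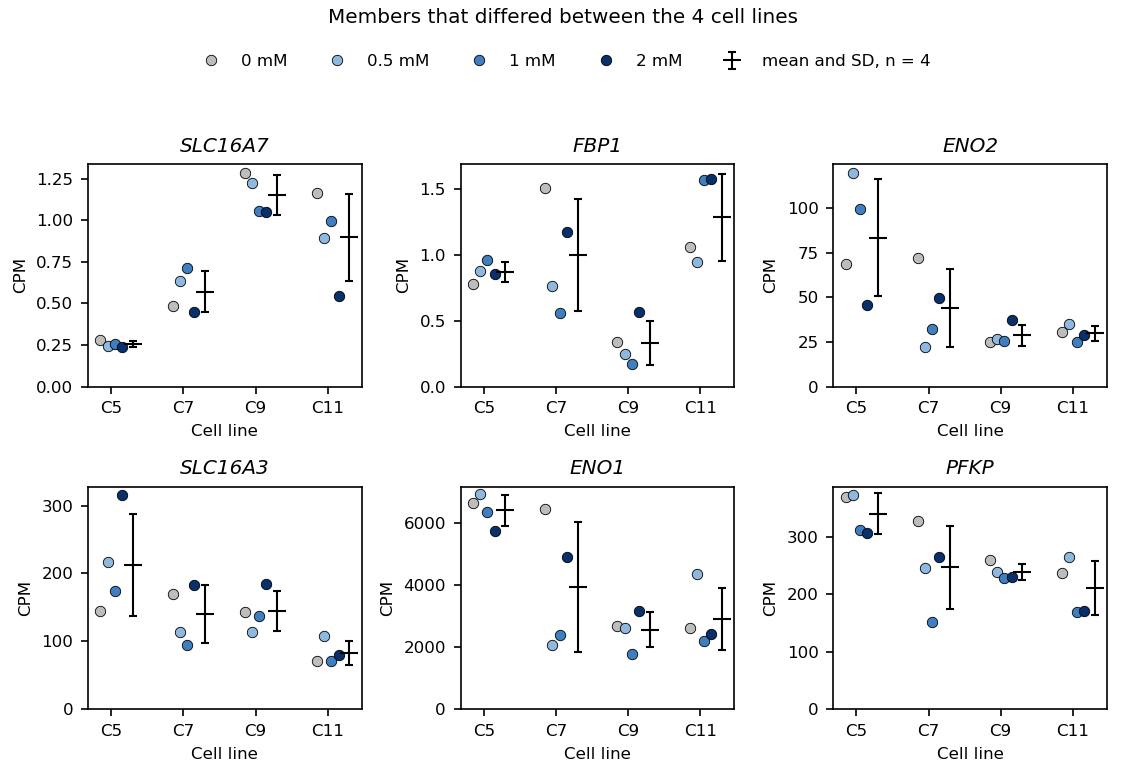
CPM (y axis) of the 6 members called between the cell lines (x axis). Points are single libraries shaded by metformin dose in mM, and bars the mean and SD over the 4 doses of a line. SLC16A7 averaged 0.254 CPM in C5 and 1.15 CPM in C9, and ENO1 6401 CPM in C5 and 2546 CPM in C9.

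The calls depended on which lines were compared. Without C5 1 member was called (FBP1; 3.23%, beside 19.9% of all genes), without C11 1 (SLC16A7; 3.23%, beside 5.14%), without C9 0 (beside 2.44%) and without C7 11 (35.5%, beside 15.9%). DESeq2 called 11 members over the 4 lines (35.5%, beside 31%). With the length slope as a covariate 7 members were called (22.6%, beside 22% of all genes). They were ENO2, SLC16A7, SLC16A3, ENO1 and PFKP again, together with HK2 (adjusted p = 0.0157) and GAPDH (adjusted p = 0.0351), while FBP1 was lost. HK2 averaged 326 ± 51.1 (C5), 217 ± 56.3 (C7), 226 ± 41.9 (C9) and 201 ± 54.4 (C11) CPM and GAPDH 9897 ± 2521 (C5), 8482 ± 5092 (C7), 4479 ± 794 (C9) and 5235 ± 588 (C11) CPM, both highest in C5. The sum of the fibroblast markers, most of it collagen, also differed between lines, with 12755 to 67116 CPM in C5 and 9388 to 29506 CPM in C9. The single markers did not all go this way. COL1A1 (21724 and 6805 CPM on average in C5 and C9), COL1A2, COL3A1, DCN and LUM were higher in C5. PDGFRA (25.0 and 127 CPM), PDGFRB (79.6 and 172 CPM), FAP (129 and 251 CPM) and THY1 (619 and 716 CPM) were higher in C9.

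Other genes of carbohydrate use were set beside the members as lists, and none of their genes was called at 2 mM or in the slope in the edgeR fits with neither the cell line nor the length slope as a term. At 2 mM the median log2 change was -0.34 for 8 other sugar transporters tested, -0.16 for 13 other glycolytic and gluconeogenic enzymes and -0.29 for 19 other pyruvate, lactate and carrier genes. It was -0.31 for 8 genes of the pentose phosphate pathway, -0.01 for 18 of glycogen metabolism and -0.14 for 10 of the glycerol phosphate and malate shuttles. For 15 hypoxia response targets outside glycolysis it was -0.16, and for 16 glucose-sensing regulators 0.36. Of those 16, 14 were higher, beside 50.6% of all genes, and none was called in this fit. The same counts of the other lists are not given here. Over all genes the median was 0.01.

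In the slope, 5 of the 108 list genes tested were called with the line as a block (4.63%, beside 4.96% of all genes), 8 with the length slope (7.41%, beside 6.39%), 15 with both (13.9%, beside 16.1%) and 5 with DESeq2 (4.46%, beside 4.79%). The lists as a whole thus held called genes about as often as the transcriptome did. The 5 genes called with the block are given with their values, and all were also called with both terms. GYS1 and RPIA were not called with the length slope alone, nor GYS1 and PDK2 with DESeq2. At 2 mM 8 of 107 list genes were called with both terms (7.48%, beside 5.43% of all genes). DESeq2 called 2 of 111 at 2 mM (1.8%, beside 2.44%), and the block alone 0 (beside 0%). NDRG1, a gene known to respond to hypoxia, had 62.3, 87.4, 39.9 and 33.7 CPM at 2 mM, against 204, 251, 118 and 78.5 CPM in the control group, lower in every line (slope -0.78 per mM, SE 0.13, adjusted p = 0.00983). GYS1, glycogen synthase of muscle and most tissues, had 36.8, 56.8, 23.1 and 46.8 CPM at 2 mM, against 194, 131, 53.8 and 89.3 CPM at 0 mM (slope -0.69, adjusted p = 0.0440). PPP1R3C, a scaffold that brings a phosphatase to glycogen, had 5.43, 6.71, 23.2 and 7.34 CPM at 2 mM, against 3.78, 2.44, 5.85 and 2.79 CPM at 0 mM (slope 0.73, adjusted p = 0.0413). Both glycogen genes thus moved in all 4 lines, GYS1 lower and PPP1R3C higher.

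RPIA, ribose phosphate isomerase of the pentose phosphate pathway, had 43.4, 27.8, 28.6 and 30.7 CPM at 2 mM, against 137, 48.5, 52.0 and 61.4 CPM in the control group (slope -0.56 per mM, adjusted p = 0.0116). PDK2, a further pyruvate dehydrogenase kinase that was not on the member list, had 7.88, 24.8, 8.40 and 20.5 CPM at 2 mM, against 36.4, 54.8, 25.4 and 38.4 CPM at 0 mM. No 2 mM library of PDK2 or of RPIA reached the lowest control library (PDK2 slope -0.62 per mM, SE 0.16, adjusted p = 0.0456). The 2 mM and control groups of NDRG1, GYS1 and PPP1R3C overlapped. Of all genes tested at 2 mM, 7.19% had groups that did not overlap.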

How the data were processed

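RNA was measured in 16 libraries (4 cell lines, 4 metformin doses). The authors deposited counts per gene, made from stranded single-end reads aligned to GRCg6a with HISAT2 2.1.0 and counted over exons with featureCounts, a read shared by overlapping genes being counted for each. No member shared exonic bases with another gene of its strand. The deposited table also gave exonic length, used for CPM per kilobase and for the length slope (over the 10632 genes whose counts averaged 100 or more). Its 10393 genes without a symbol were tested but could not be members. Deposited tables of the authors' own comparisons were not used.

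Genes passing filterByExpr were fitted in edgeR 4.0.16 (R 4.3.3) with TMM scaling and two-sided quasi-likelihood tests, each dose comparison using its own 8 libraries. All 16 libraries entered the slope per mM and the F test between cell lines, which kept dose as a factor. No cell line term entered the main fits, as none is stated in the study's methods. P-values were adjusted over all genes by Benjamini-Hochberg. DESeq2 1.42.0, RLE scaling, other filters, the cell line as a replicate block, the length slope and the omission of libraries were tried as alternatives, the omission of lines from the blocked fits having been chosen after seeing the data. Scripts were tested on simulated data. CPM per library used a TMM scaling over all 16 libraries, and line-wise log2 changes a prior count of 1.

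Same-numbered libraries come from the same hen. Deviations from the dose means had a median correlation of 0.532 between libraries of 1 line (24 pairs) and -0.146 between lines (72 pairs). Within a line it was 0.668 where the length slopes shared a sign (15 pairs) and 0.039 where they did not (9 pairs). Between lines the same medians were 0.0753 (31 pairs) and -0.309 (41 pairs). Removing the dose means itself lowers the correlations between lines, so those are no separate support for the pairing. Members and lists were chosen with earlier results of these data known. Named with full statistics were members with an unadjusted p-value under 0.05 at 2 mM or in the slope, SLC2A1, HK2, GAPDH, LDHA and PDK4, and the 5 members called between lines with the largest ratio of line means; PFKP, the remaining call, was added. Genes of the other lists are named where called with the block, a rule set after the main fits called none.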

Additional observations from a re-analysis of the deposited data

Results flagged for a closer look

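In 8 of 68 groups of 4 libraries examined, the highest library stood far from the other 3 by Dixon's ratio at its 95% critical value. The groups were the doses of each member named with full statistics or called between the cell lines. All 8 were libraries of C5. ENO1, ENO2 and SLC16A3 were examined because they were called between lines, with C5 highest, so their flags were partly set by that choice. For this reason the number flagged cannot be set against the 1 in 20 that chance gives in unselected groups. At 1 mM the C5 library had 6325 CPM of ENO1 (next highest 2374 CPM), 2916 CPM of LDHA (next 1571 CPM), 379 CPM of HK2 (next 203 CPM), 199 CPM of SLC2A1 (next 169 CPM) and 99.7 CPM of ENO2 (next 32.3 CPM). At 0.5 mM it had 119.7 CPM of ENO2 (next 35.0 CPM) and 218 CPM of SLC16A3 (next 114 CPM). Untreated C5 had 1.83 CPM of PDK4 (next 0.364 CPM). The groups of different genes share libraries, so these flags are not independent. Summed fibroblast markers in C5, mostly collagen, were 67116, 65218 and 59452 CPM at 0, 0.5 and 1 mM and 12755 CPM at 2 mM. The part of these markers in the flagged levels was not tested.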

How the results depend on the processing

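The numbers of members called by dose depended on the model. At 2 mM the main count of 0 became 2 with DESeq2 (6.45%, beside 2.44% of all genes) and 2 with the replicate block and the length slope (beside 5.43%). At 1 mM it became 2 with the replicate block and the length slope (6.45%, beside 1.76%). In the slope it became 2 with DESeq2 (6.45%, beside 4.79% of all genes) and 3 with the cell line as a replicate block (9.68%, beside 4.96%). It became 5 with the length slope (16.1%, beside 6.39% of all genes) and 5 with both (beside 16.1%). Leaving out single lines or libraries gave 0 to 2 calls at 1 mM and 0 to 2 at 2 mM, the upper ends from fits with block and length slope. The 2 at 1 mM came without C9 (6.45%, beside 5.27% of all genes) and the 2 at 2 mM without C5 (6.45%, beside 9.8%). In the slope the omissions gave 0 to 6 calls, the upper end from a blocked fit. The share over all genes is not given for that count, so it is no result about the members. Without the 1 mM or the 2 mM library of C7, PFKFB2 was called in the slope, and the share over all genes is not given there either. At 0.5 mM the count was 0 throughout. The replicate block alone changed no call at 0.5, 1 or 2 mM. Between lines the main count of 6 became 11 with DESeq2 (35.5%, beside 31% of all genes) and 0 to 11 when a line was left out (0 to 35.5%, beside 2.44 to 19.9%). The fits with block and length slope at 1 and 2 mM leave few residual degrees of freedom, so their calls, several just under the threshold, are the least secure.

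PFKM, PFKFB2, SLC2A6, SLC2A11, HK1, GAPDH and PDHB kept their direction in all 16 alternatives tried for the 2 mM change and all 24 for the slope. The direction of the others did not hold. The 2 mM change of SLC2A1 was -0.024 with DESeq2 and -0.028 with RLE scaling, and between -0.18 and 0.18 without single lines or libraries. The same omissions gave -0.29 to 0.056 for HK2, -0.15 to 0.41 for LDHA and -0.67 to 1.07 for PDK4, whose change was 0.35 with the replicate block and 0.80 with the length slope added. The slope of HK2 was 0.001 with the replicate block and 0.022 with the length slope added, and that of PDK4 -0.004 with DESeq2 and -0.003 with RLE scaling. Omissions gave slopes of -0.043 to 0.13 for SLC2A1, -0.084 to 0.06 for HK2, -0.03 to 0.25 for LDHA and -0.28 to 0.56 for PDK4. The cause of these turns was not tested. Depth limits PDK4, SLC16A7 and FBP1, which had under 60 reads in most libraries.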
